A study of Mus musculus with 32 samples.

Results

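The 10 genes of the LIN28, IGF2BP and imprinted oncofetal group were measured in 14 mouse brain tumors. They were taken by symbol from a fixed list (Lin28a, Lin28b, Igf2bp1, Igf2bp2, Igf2bp3, Hmga2, Igf2, H19, Dlk1 and Meg3), and all 10 were found among the 37310 genes of the count table. The list was chosen with earlier results of these data known. The study set a MYC-driven mouse model of Group 3 medulloblastoma, a malignant tumor of the hindbrain, beside an older MYCN-driven model of the same tumor. RNA was sequenced from 6 GMYC and 8 GTML tumors. In its own classification the study set apart a GTML tumor that also had an SHH-like signature, SHH being another medulloblastoma subgroup, and its comparisons of the models used the remaining GTML tumors. Which tumor that was is not given in the sources used here, so all 8 were kept, and values without each tumor in turn stand beside the results that changed.

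GMYC tumors came from Glt1-tTA/TRE-MYC mice. In these animals the tetracycline transactivator was made from the promoter of the glutamate transporter Glt1 and switched on a MYC transgene in the absence of doxycycline. GTML tumors came from the equivalent Tet-OFF model, in which MYCN expression was directed from the Glt1 promoter. The transgenic crosses were on the FVB/N background, the biopsies were fresh-frozen pieces of tumor, and the age of each animal is not given in the labels. Tumors arose from Glt1-expressing cells of the hindbrain, so both models rest on the same promoter. Part of the GTML reads had been generated for an earlier study, so the model and the time of sequencing cannot be told apart for those tumors.

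LIN28A and LIN28B are RNA-binding proteins of the embryo that bind precursors of the let-7 microRNAs and keep them from maturing. Mature let-7 in turn represses Lin28a, Lin28b, Hmga2 and the Igf2bp genes, which encode RNA-binding proteins that stabilize fetal messages such as Igf2 and Myc. Igf2 with H19, and Dlk1 with Meg3, are neighbours in imprinted clusters in which the protein-coding gene is read from the paternal chromosome and the noncoding RNA from the maternal one. Most of these genes are high before birth and low in adult tissue, and several are found again in tumors.

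The seed of let-7, bases 2 to 8 of the mature microRNA, is what pairs with these messages. It was the same in 10 of the 11 mature let-7 family sequences of RefSeq (build GRCm38.p6), of which 5 are shown to let the shared seed and the exception be seen (seed in capitals). The let-7j entry was the exception.
let-7a-5p: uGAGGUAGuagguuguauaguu
let-7d-5p: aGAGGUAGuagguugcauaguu
let-7g-5p: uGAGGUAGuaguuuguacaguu
miR-98-5p: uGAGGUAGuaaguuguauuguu
let-7j: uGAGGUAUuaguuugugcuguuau

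The match to that seed, CTACCTC on the sense strand, was looked up in the longest annotated 3′ UTR of each coding member (GENCODE annotation of GRCm38). It was present in 6 of the 8 coding members. Of 20966 coding genes 9% had a match, but the UTRs of the members are long (1784 to 6337 bases), and among UTRs within 20% of the length of each one 12.1% to 33.6% had a match. The UTR of Lin28b held 4 matches, a number reached by 0.24% of the UTRs of like length, that of Hmga2 held 4 (0.13%) and that of Igf2bp1 held 4 (0.36%). Lin28a had 2 matches (2.1%), Igf2bp2 and Igf2bp3 had 1 each (12.06% and 13.3%), and Igf2 and Dlk1 had none. One window of 30 bases is shown for each gene that had a match, with the 8-base form CTACCTCA in capitals; that form was present in 3.1% of the UTRs. A match is a run of letters and not a measured site.
Lin28a: agtgcacagcctgttgaaCTACCTCAtttt
Lin28b: ttcacccgggcgggaagtCTACCTCAtgca
Igf2bp1: agtgctgtgcgaagtaaaCTACCTCAaggt
Igf2bp2: aaaacacacaaataaaagCTACCTCAggtg
Igf2bp3: acgtgcatttttactcaaCTACCTCAggta
Hmga2: ggcgccgacattcaatttCTACCTCAgcat

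The E-box CACGTG, the sequence that MYC and MYCN bind together with MAX, was looked up in RefSeq promoter windows of 250 bases before to 50 bases after the start site (GRCm38.p6). The motif reads the same on both strands. It was found in the windows of Lin28b, with 1 copy, and Igf2bp3, with 2 copies, and not in the windows listed for Lin28a, Igf2bp2, Hmga2, Igf2, Dlk1 and Meg3. Igf2bp1 and H19 were not searched. Of all 32851 windows, 7.15% held at least 1 copy and 0.59% held at least 2. Both windows are printed because these are the members in which the motif was found (motif in capitals). Binding was not measured here, and the letters say nothing on whether a factor was bound.
Lin28b (chr10:45470152-45470451, minus strand): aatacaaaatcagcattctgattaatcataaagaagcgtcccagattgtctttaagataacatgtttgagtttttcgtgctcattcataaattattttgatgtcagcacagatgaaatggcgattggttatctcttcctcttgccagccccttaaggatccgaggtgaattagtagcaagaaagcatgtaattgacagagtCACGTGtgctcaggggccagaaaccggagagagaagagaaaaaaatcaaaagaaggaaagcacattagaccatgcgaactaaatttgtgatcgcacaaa
Igf2bp3 (chr6:49214905-49215204, minus strand): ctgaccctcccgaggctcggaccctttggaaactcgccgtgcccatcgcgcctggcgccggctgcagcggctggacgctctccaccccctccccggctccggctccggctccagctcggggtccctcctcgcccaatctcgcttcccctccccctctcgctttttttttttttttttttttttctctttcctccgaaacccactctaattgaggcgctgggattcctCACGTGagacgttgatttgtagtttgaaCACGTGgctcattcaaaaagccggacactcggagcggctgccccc

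Total counts ran from 4602294 to 7279811 per tumor, and levels are given as CPM, the count of a gene scaled to the TMM-adjusted size of its library. The mouse genes of the drivers followed the labels: Myc averaged 128 ± 47.5 CPM (SD, n = 6) in GMYC and 5.19 ± 1.89 CPM (n = 8) in GTML, and Mycn 23 ± 10.7 and 159 ± 28 CPM. The study describes the MYC transgene as human, and reads were mapped to the mouse genome. How many of the Myc reads came from the transgene was not tested. The 9 Group 3 markers looked at, among them Otx2 and Crx, were all detected, and their summed level overlapped between the models (1352 to 1914 CPM in GMYC, 897.6 to 1961 CPM in GTML). Small nucleolar RNAs took more or less than 0.3% of the counts, depending on the tumor: GMYC tumors 1 to 4 and GTML tumors 1 and 2 lay above that value, and the other 8 below. The tumors above that value are also listed before all the others in the sample list. The split is uneven between the models, and what it reflects is not given in the labels. In GTML tumor 8, the 8 skeletal muscle markers summed to 174.7 CPM, against 14.61 to 34.08 CPM in the other 13 tumors.

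Of the 10 genes, 3 were higher in GMYC tumors at an adjusted p under 0.05: Lin28b, Lin28a and Igf2bp3. No member was higher in GTML at that threshold. The test was edgeR's quasi-likelihood test over 21024 genes with Benjamini-Hochberg adjustment, and each log2 fold change gives GTML relative to GMYC. At that threshold 21% of all genes tested differed, 9.67% of all genes in the GMYC direction and 11.4% in the GTML direction, and the 3 of 10 is to be read against those shares. Under the stricter call, at the study's thresholds (adjusted p below 0.01 and a log2 change above 1 in size), edgeR called 0 of the 10. That rule was met by 3.15% of all genes, 1.08% higher in GMYC and 2.06% higher in GTML. At an unadjusted p under 0.05 there were 4 (Lin28a, Lin28b, Igf2bp2 and Igf2bp3). DESeq2 called 2 under the stricter rule, Lin28a and Igf2bp3, and gave H19 no adjusted p. Limma-voom, the method of the study's own comparison, called 0 and left Lin28b as the 1 member with an adjusted p under 0.05. With it Lin28a had an adjusted p of 0.0547 and Igf2bp3 of 0.0622. The median log2 fold change was -0.24 over the 10 genes and 0.04 over all genes tested.

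**Figure D1:**
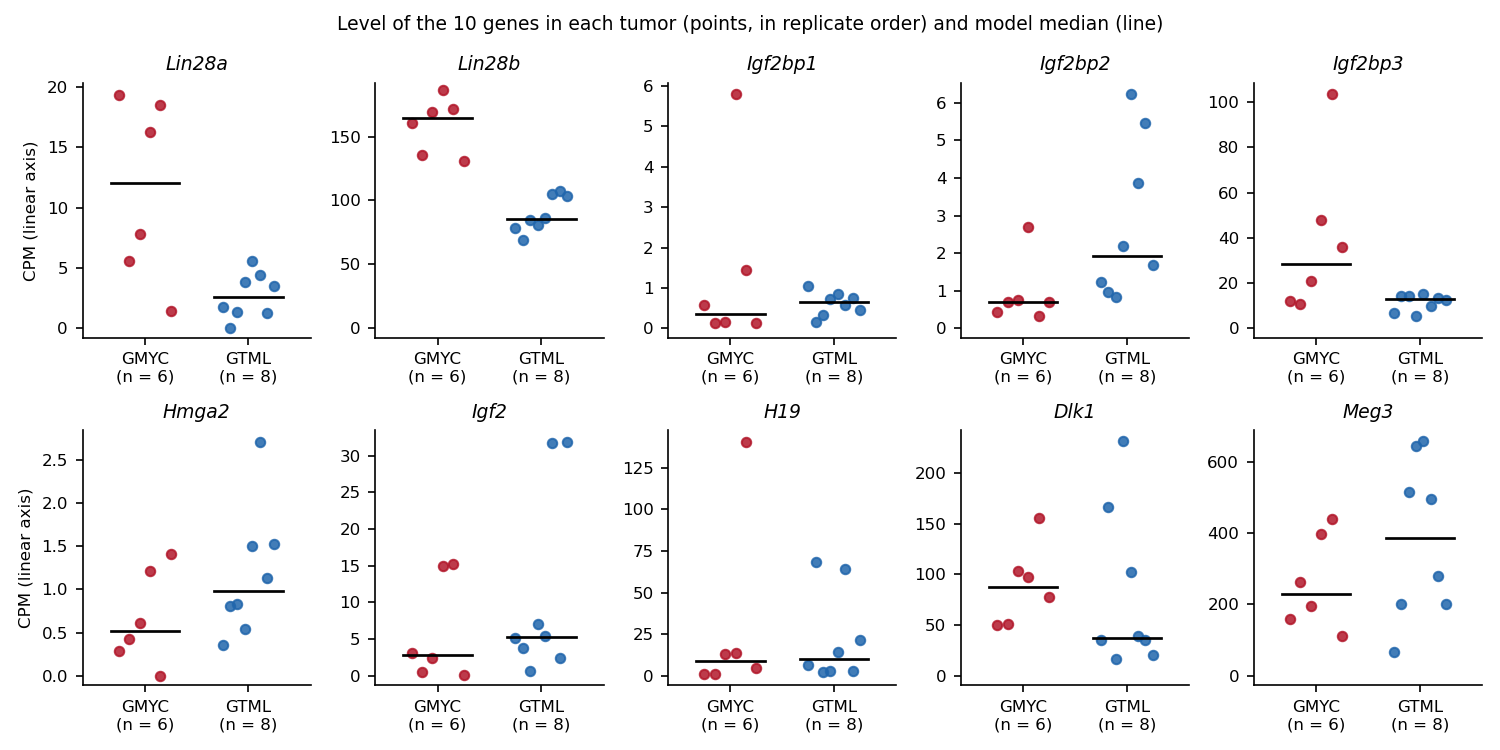
CPM of each of the 10 genes in every tumor (points, linear axes, 6 GMYC tumors in red and 8 GTML tumors in blue), with the median of each model as a line. The models separate fully for Lin28b; in Igf2bp1, Igf2bp2 and H19 a single GMYC tumor sits far above the other 5.

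**Figure D2:**
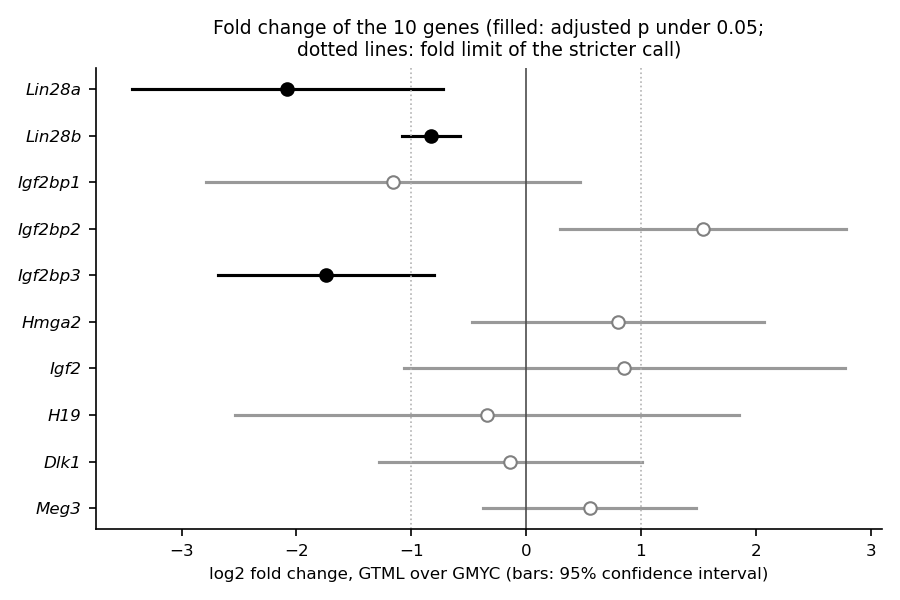
Log2 fold change, GTML over GMYC, of the 10 genes with 95% confidence intervals from edgeR. Filled points mark an adjusted p under 0.05 (Lin28a, Lin28b and Igf2bp3, all to the left of 0), and dotted lines mark the fold limit of the stricter call.

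Lin28b, the LIN28 paralog that keeps let-7 precursors from the processing machinery, was the most evenly different member. GMYC tumors had 131 CPM at the lowest, 165 at the median and 186 at the highest (928 to 1383 counts), and GTML tumors had 69.2, 85.3 and 107 CPM (401 to 681 counts). All 6 GMYC tumors lay above all 8 GTML tumors, which held for 4.62% of the genes tested in either direction and for 2.48% in this direction. The spread within a model was small, 1.42-fold from lowest to highest in GMYC and 1.55-fold in GTML. The log2 fold change was -0.83 (SE 0.12, 95% interval -1.08 to -0.58, adjusted p = 0.0016), and the GMYC mean was 1.78 times the GTML mean. The exact two-sided permutation test over the 3003 splits of the tumors gave p = 0.000333, the smallest it can give. With each tumor left out in turn the log2 fold change stayed between -0.88 and -0.78 and the adjusted p at or below 0.00596. Among the 8 tumors on the lower side of the small nucleolar RNA split it was -0.69 (adjusted p = 0.0301), and among the 6 on the higher side, with 2 GTML tumors, -1.13 (adjusted p = 0.163).

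Lin28a, the paralog that is best known from embryonic stem cells, differed more in size and less evenly. GMYC tumors ranged from 1.41 CPM through a median of 12.04 to 19.3 CPM (10 to 135 counts), and GTML tumors from 0 through 2.63 to 5.59 CPM (0 to 26 counts). In GMYC 5 of the 6 tumors were above every GTML tumor, and GMYC tumor 6 fell within the GTML range. No read was counted in GTML tumor 2, which allows up to 0.475 CPM when 3 counts are taken as the limit (counting error only). Lin28a had a log2 fold change of -2.08 (SE 0.639, adjusted p = 0.0318), and the exact permutation test gave p = 0.0197. The adjusted p rose above 0.05 without GMYC tumor 1 (0.0737), 4 (0.054) or 5 (0.0701) and without GTML tumor 3 (0.052) or 7 (0.0621), and was 0.0547 with limma-voom, 0.0515 with the small nucleolar RNA split in the model and 0.123 with a covariate of Y-linked genes. Of 4 Y-linked genes none passed an adjusted p of 0.05, but all 4 had a lower mean and a wider spread in GTML. Ddx3y had 107 ± 12.7 CPM in GMYC and 29.7 ± 34 CPM in GTML (adjusted p = 0.145), and Eif2s3y 96.3 ± 6.64 and 29.9 ± 34.7 CPM (adjusted p = 0.203). With the covariate of Y-linked genes, Lin28b had -0.78 (adjusted p = 0.0146) and Igf2bp3 -2.09 (adjusted p = 0.0426). The part of sex in the differences was not tested apart from that covariate. Without GTML tumor 2, where it had no read, Lin28a had -1.88 (adjusted p = 0.016). Within the lower and the higher side of the small nucleolar RNA split the log2 fold change was -1.57 and -3.78, with adjusted p of 0.173 and 0.309. The antisense gene Gm13061, which shares 234 exon bases with Lin28a, had 51 counts in all tumors together against 590 for Lin28a, a log2 fold change of -1.90 (SE 0.736, adjusted p = 0.0643) and an r of 0.839 with Lin28a over the 14 tumors. Without strand, reads of the shared bases cannot be told apart.

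Per kb of exon, Lin28b was the main LIN28 message in each tumor. It made up 78.6% to 97.6% of the summed level of both paralogs in GMYC (median 87%) and 87.2% to 100% in GTML (median 94%). In the same tumors 8 astrocyte markers summed to 801.6 to 1379 CPM in GMYC and 539.2 to 965.7 CPM in GTML, with none of the 8 at 0 in all tumors and none past an adjusted p of 0.05. Most of the astrocyte sum was Slc1a2 (701 ± 103 CPM in GMYC and 586 ± 156 CPM in GTML). Slc1a2 is the gene of Glt1, whose promoter drove the transgenes of both models. Over the 14 tumors, which share the model difference, that sum had a Pearson r of 0.792 with Lin28b and 0.636 with Lin28a. The 8 oligodendrocyte markers summed to 155.6 to 367.3 CPM in GMYC and 158.2 to 374.9 CPM in GTML, with an r of 0.64 with Lin28b and 0.356 with Lin28a. Of these Olig1 (adjusted p = 0.0319) and Olig2 (adjusted p = 0.0322) were higher in GMYC and Mog (adjusted p = 0.0107) higher in GTML. The 8 cerebellar neuron markers summed to 249 to 419.1 CPM and 218.7 to 283.7 CPM, with an r of 0.637 and 0.633, and Cbln3 (adjusted p = 0.0361) and Neurod1 (adjusted p = 0.0425) were higher in GMYC. No marker of either list was at 0 in all tumors. Of all marker lists compared, the astrocyte, oligodendrocyte and cerebellar neuron lists had the largest r with the LIN28 genes. The largest part of the oligodendrocyte sum was Mbp (170 ± 45.4 CPM in GMYC and 119 ± 31 CPM in GTML). That of the cerebellar neuron sum was Neurod1 (237 ± 17.4 and 203 ± 12.7 CPM). A sum weighted toward a single gene is not a measure of how many such cells a tumor held. The part of those cells in the LIN28 difference was not tested, and in bulk tumor RNA fewer cells of a type and less RNA per cell cannot be told apart.

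Igf2bp3, an oncofetal RNA-binding protein of the IGF2BP family, was higher in GMYC through part of its tumors. GMYC tumors had 10.8 CPM at the lowest, 28.5 at the median and 104 at the highest (77 to 644 counts), and GTML tumors had 5.46, 12.9 and 15.3 CPM (30 to 87 counts). GMYC tumors 3, 4, 5 and 6 were above every GTML tumor, and GMYC tumors 1 and 2 lay among them. The log2 fold change was -1.74 (SE 0.442, adjusted p = 0.0149), and the exact permutation test gave p = 0.012. GMYC tumor 5 alone carried 44.8% of the summed GMYC level, and without it the log2 fold change was -1.15 (adjusted p = 0.049). With limma-voom the adjusted p was 0.0622. Without GMYC tumor 2, the lowest of its model, Igf2bp3 met the stricter call (-1.94, adjusted p = 0.00812). It also did among the tumors on the lower side of the small nucleolar RNA split (-2.57, adjusted p = 0.00934), where the higher side gave -1.10 (adjusted p = 0.541). The only GMYC tumors on the lower side were 5 and 6, so that fit rests in part on GMYC tumor 5. The low GMYC tumors 1 and 2 were on the higher side. Malsu1, on the opposite strand with 1529 shared exon bases and 2167 counts against 2070, had a log2 fold change of -0.16 (SE 0.163, adjusted p = 0.49) and an r of 0.131 with Igf2bp3 over the 14 tumors. The level of Igf2bp3 had an r of 0.541 with the summed astrocyte markers, 0.552 with the oligodendrocyte markers and -0.54 with the 9 pericyte and smooth muscle markers (130.9 to 506.3 CPM in GMYC and 145.3 to 604.5 CPM in GTML, none at 0 in all tumors). Of all marker lists compared, these had the largest r in size with Igf2bp3. The astrocyte and oligodendrocyte sums are weighted toward Slc1a2 and Mbp, as given above, and the part of those cells was not tested.

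Igf2bp2, the family member that HMGA2 is known to switch on, had the opposite sign and did not pass the threshold. GMYC tumors had 0.322, 0.704 and 2.69 CPM at the lowest, median and highest (2 to 20 counts), and GTML tumors 0.83, 1.93 and 6.23 CPM (5 to 29 counts). Apart from GMYC tumor 4, the other 5 GMYC tumors lay below all 8 GTML tumors. Igf2bp2 had a log2 fold change of 1.54 (SE 0.589, adjusted p = 0.0686), the exact permutation test gave p = 0.029, and without GMYC tumor 4 the value was 2.21 (adjusted p = 0.0196). The only other tumor whose removal brought the adjusted p under 0.05 was GTML tumor 2 (1.67, adjusted p = 0.0397). DESeq2 gave an adjusted p of 0.0367.

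Igf2bp1 was close to the limit of detection. GMYC tumors had 1 to 43 counts (median 2.5) and GTML tumors 1 to 6 (median 3.5). GMYC tumor 4 held 70.2% of the summed GMYC level at 5.79 CPM, and 3 tumors in all were above 1 CPM, the number the filter asked for. The log2 fold change of -1.16 (SE 0.767, adjusted p = 0.267) could not be computed without GMYC tumor 4, GMYC tumor 5 or GTML tumor 1, since the gene then did not pass the filter. On the log2 CPM scale, where 1 tumor weighs less, the model means differed by -0.158 (exact permutation p = 0.819). Within the family and per kb of exon, Igf2bp3 made up 85.9% to 98.5% of the summed level in GMYC tumors and 64.4% to 92.3% in GTML tumors.

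Hmga2, a chromatin protein of the embryo and a classic let-7 target, was at the edge of detection in both models. GMYC tumors had 0 to 10 counts (0, 0.516 and 1.41 CPM at the lowest, median and highest) and GTML tumors 2 to 14 counts (0.352, 0.98 and 2.71 CPM). The models overlapped, with 3 GTML tumors above the highest GMYC tumor. Hmga2 had a log2 fold change of 0.80 (SE 0.601, 95% interval -0.47 to 2.07, adjusted p = 0.329). The antisense gene 1700006J14Rik shares 140 exon bases with Hmga2 and had more counts than it, 108 against 80. It was higher in GTML, with a log2 fold change of 3.09 (SE 0.894, adjusted p = 0.0223), and had an r of 0.46 with Hmga2 over the 14 tumors. Without strand such reads cannot be told apart. Hmga1, the relative of Hmga2, was well measured at 65.2 ± 21.4 CPM in GMYC and 37.4 ± 10.1 CPM in GTML, and fell by 0.80 on the log2 scale (SE 0.209, adjusted p = 0.0163) from GMYC to GTML.

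**Figure D3:**
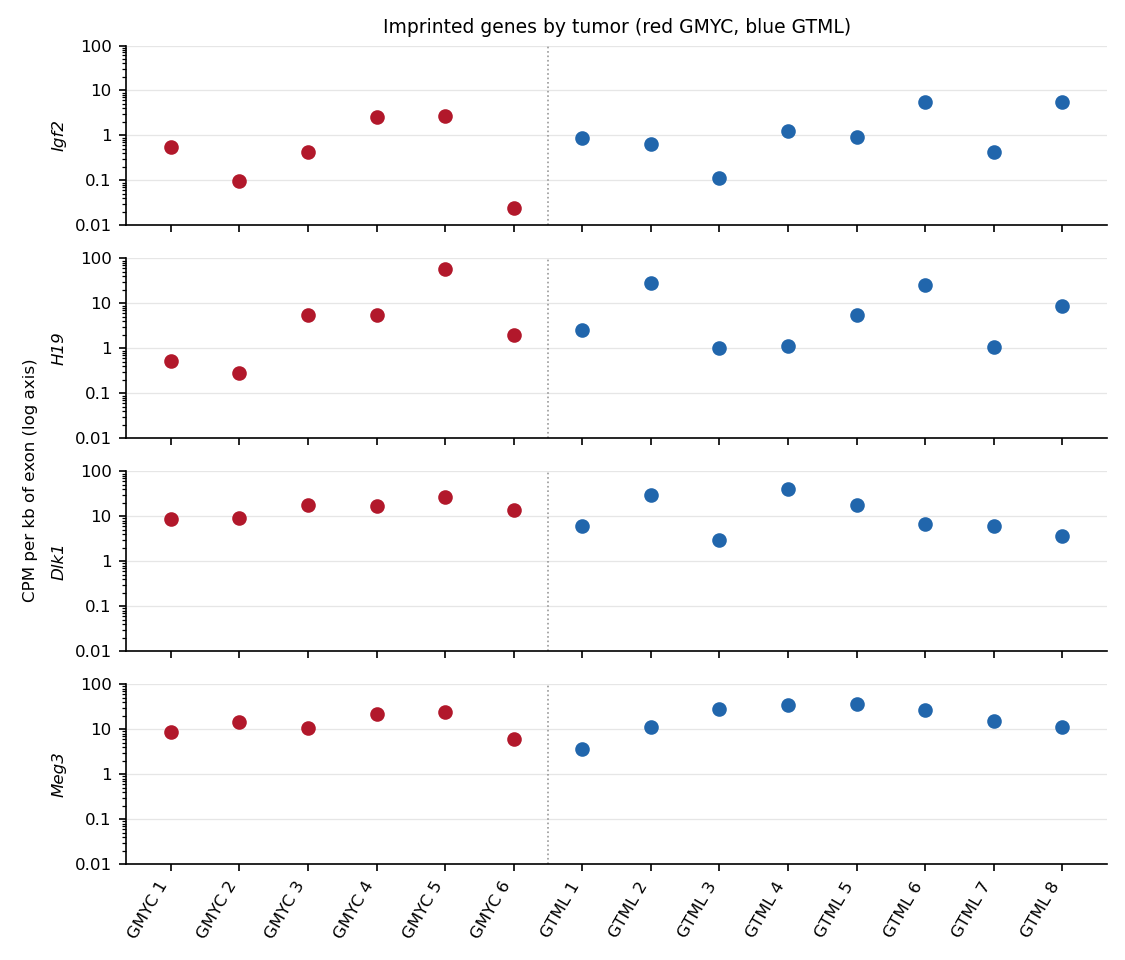
CPM per kb of exon (log axis) of Igf2, H19, Dlk1 and Meg3 in each of the 14 tumors, GMYC in red and GTML in blue. Igf2 and H19 vary over 2 or more decades within GMYC, and the models overlap for each of the 4 genes.

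The models overlapped for each of the 4 imprinted members, and none passed the threshold. Igf2, the fetal insulin-like growth factor, had 0.141, 2.8 and 15.3 CPM at the lowest, median and highest GMYC tumor (1 to 111 counts). In GTML it had 0.664, 5.24 and 31.9 CPM (4 to 209 counts). The range spanned 108-fold in GMYC and 48-fold in GTML, and the high tumors were GMYC 4 and 5 and GTML 6 and 8. The log2 fold change was 0.86 (SE 0.904, 95% interval -1.06 to 2.77, adjusted p = 0.504). It was 0.40 without GTML tumor 8 and 0.43 without GTML tumor 6. The level of Igf2 had an r of 0.624 with the summed endothelial markers over the 14 tumors (83.9 to 207.3 CPM in GMYC and 154.4 to 305.5 CPM in GTML, 9 of 9 markers detected). That was its largest r with any marker list, and the others ran from -0.337 (choroid plexus) to 0.458 (pericyte and smooth muscle). Most of the choroid plexus sum was Otx2 (315 ± 35 CPM in GMYC and 322 ± 48.6 CPM in GTML), which is also among the Group 3 markers. GTML tumor 8 had the highest GTML sum of the pericyte and smooth muscle, leptomeningeal fibroblast (1120 CPM), microglia and macrophage, and skeletal muscle (174.7 CPM) markers. GTML tumor 6 had that of the endothelial and astrocyte markers. The r of Igf2 was 0.412 with the leptomeningeal fibroblast list and 0.343 with the skeletal muscle list. The part of any of these cells in Igf2 was not tested. The antisense gene Igf2os, with 98 shared exon bases and 53 counts against 755, had a log2 fold change of 1.61 (SE 0.92, adjusted p = 0.192) and an r of 0.609 with Igf2.

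H19, the maternal noncoding RNA next to Igf2, varied 200-fold from lowest to highest in GMYC and 27.5-fold in GTML. GMYC tumors had 0.702, 9.05 and 141 CPM (5 to 875 counts) and GTML tumors 2.49, 10.2 and 68.5 CPM (14 to 422 counts). GMYC tumor 5 held 80.7% of the summed GMYC level and was 10.5 times the next tumor. The sign followed that tumor: the log2 fold change was -0.34 (SE 1.03, adjusted p = 0.831) with it and 1.76 (adjusted p = 0.21) without it. The microRNA genes inside both loci, Mir675 in H19 and Mir483 in Igf2, had 0 counts in all tumors.

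Dlk1, a paternally expressed membrane protein of the Notch ligand family, had 50.2, 87.3 and 156 CPM in GMYC and 16.6, 37.3 and 232 CPM in GTML. In GTML, 3 tumors (2, 4 and 5) had 102 to 232 CPM and the other 5 had 16.6 to 39.3 CPM, all below the lowest GMYC tumor. Dlk1 had a log2 fold change of -0.14 (SE 0.54, 95% interval -1.28 to 1.01, adjusted p = 0.873). Its sign turned without GMYC tumor 5 (0.10), GTML tumor 3 (0.02) or GTML tumor 8 (0.01).

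Meg3, the maternal noncoding RNA of the same cluster, was the most abundant member in CPM. It had 111, 229 and 439 CPM at the lowest, median and highest GMYC tumor, and 65.8, 387 and 658 CPM in GTML. Although 4 GTML tumors were above every GMYC tumor, GTML tumor 1 was the lowest of all, and the log2 fold change of 0.55 (SE 0.439, adjusted p = 0.368) did not pass. It was -0.04 once the small nucleolar RNA split was in the model.

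Neighbours in a cluster were set against each other within each model, along with the pairs in which one protein is known to act on the other gene. Over 10 relations, none passed after adjustment. Igf2 and H19 had a Pearson r of 0.679 in GMYC (n = 6, exact permutation p = 0.126, adjusted 0.247; Spearman rho 0.714, exact p = 0.136, adjusted 0.34) and 0.602 in GTML (n = 8, exact p = 0.116, adjusted 0.247; rho 0.548, exact p = 0.171, adjusted 0.342). Without the 2 tumors farthest from the Igf2 median r was 0.707 in GMYC and 0.299 in GTML. Dlk1 and Meg3 had an r of 0.537 in GMYC (n = 6, exact permutation p = 0.282, adjusted 0.403; rho 0.6, exact p = 0.242, adjusted 0.347) and 0.269 in GTML (n = 8, exact permutation p = 0.524, adjusted 0.582; rho 0.286, exact p = 0.501, adjusted 0.626). Without the 2 tumors farthest from the Dlk1 median r was 0.0459 in GMYC and 0.267 in GTML. Lin28b and Hmga2 had a rho of 0.786 in GTML (n = 8, exact permutation p = 0.0279, adjusted 0.167; r 0.697, exact p = 0.0528, adjusted 0.247) and -0.257 in GMYC (n = 6, exact permutation p = 0.658, adjusted 0.703; r -0.217, exact p = 0.676, adjusted 0.676). Without the 2 tumors farthest from the Lin28b median r was 0.885 in GTML and 0.581 in GMYC. Lin28b and Igf2bp1 had a rho of 0.886 in GMYC (n = 6, exact permutation p = 0.0333, adjusted 0.167; r 0.769, exact p = 0.0778, adjusted 0.247) and 0.167 in GTML (n = 8, exact permutation p = 0.703, adjusted 0.703; r 0.278, exact p = 0.505, adjusted 0.582). Without the 2 tumors farthest from the Lin28b median r was 0.834 in GMYC and -0.478 in GTML. Hmga2 and Igf2bp2 had a rho of 0.829 in GMYC (n = 6, exact permutation p = 0.0583, adjusted 0.194; r 0.715, exact p = 0.115, adjusted 0.247) and 0.476 in GTML (n = 8, exact permutation p = 0.243, adjusted 0.347; r 0.563, exact p = 0.148, adjusted 0.247). Without the 2 tumors farthest from the Hmga2 median r was 0.973 in GMYC and 0.475 in GTML, with 4 and 6 tumors left.

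Levels can be compared between genes only per length. In GMYC, Lin28b (17.5 ± 2.38 CPM per kb, SD), Dlk1 (15.8 ± 6.99), Meg3 (14.4 ± 7.3) and H19 (11.8 ± 22.3) were at the top and did not differ from each other beyond their spread. Igf2bp3 (4.72 ± 4.28), Lin28a (2.88 ± 1.88) and Igf2 (1.06 ± 1.24 CPM per kb) came next, again with overlapping spreads. Igf2bp1 (0.142 ± 0.229), Igf2bp2 (0.126 ± 0.119) and Hmga2 (0.097 ± 0.081 CPM per kb) were lowest. In GTML the top was Meg3 (21.1 ± 12.4), Dlk1 (14.3 ± 14.1), Lin28b (9.86 ± 1.56) and H19 (9.26 ± 11.3 CPM per kb), and the bottom was Igf2bp2 (0.379 ± 0.286), Hmga2 (0.174 ± 0.11) and Igf2bp1 (0.0636 ± 0.0302 CPM per kb).

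**Figure D4:**
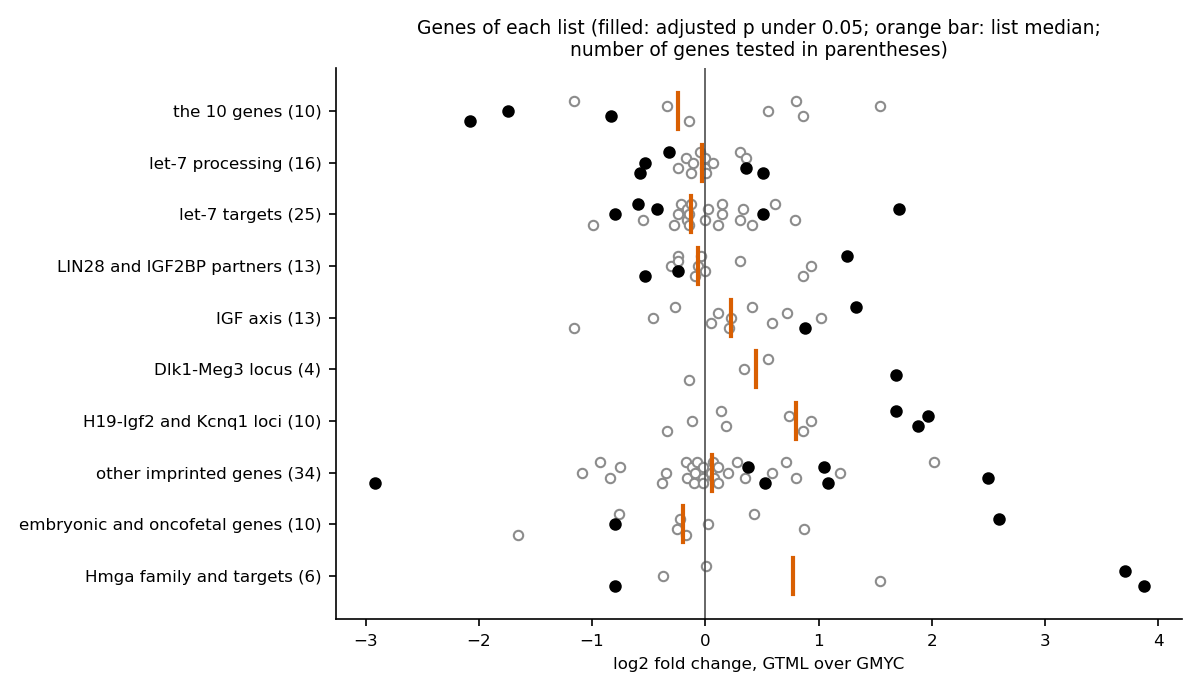
Log2 fold change, GTML over GMYC, of every tested gene in the lists around the 10 genes. Filled points mark an adjusted p under 0.05 and orange bars the median of each list; the 3 filled points of the H19-Igf2 and Kcnq1 loci lie to the right of 0, and the let-7 lists have filled points on both sides.

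Of 16 genes that process let-7 or act on its precursor, 2 were higher in GTML and 3 in GMYC at an adjusted p under 0.05, against 11.4% and 9.67% of all genes. Dicer1, which cuts the precursor to the mature microRNA and is itself a let-7 target, rose from 192 ± 29.1 CPM in GMYC to 275 ± 36 CPM in GTML (log2 fold change 0.51, SE 0.114, adjusted p = 0.00881). Tut4, the enzyme that adds a uridine tail to precursors held by LIN28, rose by 0.36 (adjusted p = 0.0312). Higher in GMYC were Syncrip (-0.53, adjusted p = 0.014), Tarbp2, the partner of DICER1 (-0.58, adjusted p = 0.0212), and Ddx5, a helicase of the DROSHA complex (-0.32, adjusted p = 0.018). The 10 let-7 genes in the table summed to 14.4 ± 2.59 CPM in GMYC and 15.5 ± 2.31 CPM in GTML, and none of the 8 tested passed the threshold. These counts are of reads over the gene, not of the mature microRNA, which was not measured.

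Of 25 known let-7 targets tested, 2 were higher in GTML (Ccnd1 and Dicer1) and 3 in GMYC (Hmga1, Cdc34 and E2f6) at an adjusted p under 0.05, near the 11.4% and 9.67% of all genes. Ccnd1, which encodes cyclin D1, met the stricter call, with 34.1 ± 21.6 CPM in GMYC and 111 ± 22.5 CPM in GTML (log2 fold change 1.71, SE 0.291, adjusted p = 0.00336). Cdc34 had -0.59 (adjusted p = 0.0158) and E2f6 -0.43 (adjusted p = 0.0435). Trim71, a partner in the same embryonic timing pathway, had -0.13 (SE 0.553, adjusted p = 0.885). The list median was -0.13, beside 0.04 for all genes. Among 13 tested partners of LIN28 and IGF2BP proteins, Mov10, an RNA helicase, was higher in GTML (1.25, SE 0.369, adjusted p = 0.0271), and Syncrip and Caprin1 (-0.24, adjusted p = 0.0431) were higher in GMYC. These counts stand against the same 11.4% and 9.67% of all genes.

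The insulin-like growth factor axis was taken as a list of ligands, receptors, adaptors, binding proteins and Igf2bp1. Of its 13 tested genes, 2 were higher in GTML and 0 in GMYC at an adjusted p under 0.05 (4 at an unadjusted p under 0.05 in either direction), against 11.4% and 9.67% of all genes. Irs2, the adaptor that couples the receptors to PI3 kinase, met the stricter call, with 24.9 ± 11.8 CPM in GMYC and 62.6 ± 14.1 CPM in GTML (log2 fold change 1.33, SE 0.255, adjusted p = 0.0054). Insr, the insulin receptor, which also binds IGF2, rose from 122 ± 26.1 to 224 ± 45.6 CPM (0.88, SE 0.156, adjusted p = 0.00368). The receptor Igf1r (0.41, SE 0.192, adjusted p = 0.131) and the scavenger Igf2r (0.11, SE 0.126, adjusted p = 0.553) did not pass.

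Some neighbours of the imprinted members passed the threshold. Of 10 tested genes of the H19-Igf2 and Kcnq1 loci, 3 were higher in GTML and 0 in GMYC at an adjusted p under 0.05, against 11.4% and 9.67% of all genes, and 2 met the stricter call as higher in GTML, against 2.06%. Osbpl5 (11.8 ± 5.91 and 43.6 ± 11.4 CPM, log2 fold change 1.88, SE 0.308, adjusted p = 0.00282) and Tspan32 (0.914 ± 0.224 and 3.64 ± 1.8 CPM, 1.97, SE 0.389, adjusted p = 0.00571) met the stricter call, and Ascl2 had 1.68 (adjusted p = 0.0285). Of 4 tested genes of the Dlk1 cluster, Begain, at its edge, met it too (9.37 ± 3.23 and 30.1 ± 12 CPM, 1.68, SE 0.316, adjusted p = 0.00494), while Rtl1 had 0.34 (SE 0.531, adjusted p = 0.66). Of 34 tested imprinted genes elsewhere, 5 were higher in GTML and 1 in GMYC, against 11.4% and 9.67% of all genes, and none met the stricter call. The 2 with the smallest p were Ddc, the enzyme that makes dopamine and serotonin (11.7 ± 11.9 and 66.3 ± 30.7 CPM, 2.50, SE 0.607, adjusted p = 0.0127), and Zdbf2 (48.9 ± 44.3 and 6.49 ± 8.75 CPM, -2.92, SE 0.769, adjusted p = 0.0171).

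Of 20 other stem cell and oncofetal genes, 10 passed the filter, with Crabp1, a retinoic acid binding protein, higher in GTML from a very low level (0.195 ± 0.277 and 1.27 ± 1.06 CPM, 2.59, SE 0.845, adjusted p = 0.0339) and Hmga1 higher in GMYC. That is 1 gene in each direction at an adjusted p under 0.05, near the 11.4% and 9.67% of all genes. Among 6 tested genes of the HMGA family and its targets, Cdkn2a (3.87, adjusted p = 0.00183) and Cdkn2b (3.71, adjusted p = 5.25e-05), the cell cycle inhibitors that HMGA2 is known to hold down in stem cells, met the stricter call as higher in GTML, which 2.06% of all genes did. The study had already reported both among its top genes higher in GTML in these data, so they are not a separate result here. A link to Hmga2, which had 0.80 (adjusted p = 0.329), was not tested.

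The genes whose log2 CPM followed a member most closely over the 14 tumors, out of 14518 with a mean of at least 5 CPM, were Kcnip2 (r = 0.925), Tspan4 (0.922) and Slc16a10 (0.916) for Lin28b. Nradd (r = 0.854), Ccdc116 (0.839) and Dpp4 (0.831) came first for Lin28a. For Igf2bp3 they were Ccdc8 (r = 0.927), Dock6 (0.892) and Plin3 (0.892). For Igf2bp2 they were Gnao1 (r = 0.942), Zmiz2 (0.936) and Rnf165 (0.93), and for Igf2bp1 Shisal1 (r = 0.81), Ccdc78 (0.784) and Rhobtb2 (0.782). Hmga2 was followed by a gene with no symbol (r = 0.844), Gm12276 (0.833) and Alas2 (0.819). Igf2 was followed by Thy1 (r = 0.804), Pnpla2 (0.8) and Tgm1 (0.792), H19 by Kif1c (r = 0.821), Adamts1 (0.802) and Sulf1 (0.801), Dlk1 by L3mbtl2 (r = 0.895), Fkbp5 (0.877) and 1110038B12Rik (0.854), and Meg3 by Trmt10a (r = 0.826), Myom1 (0.816) and Tnfrsf18 (0.809). Igf2bp1, Igf2bp2 and Hmga2 lay below that mean and could not be found by this search. None of the other 7 members stood among the 3 nearest genes of any member, and these are descriptions over tumors that share the model difference.

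**Figure D5:**
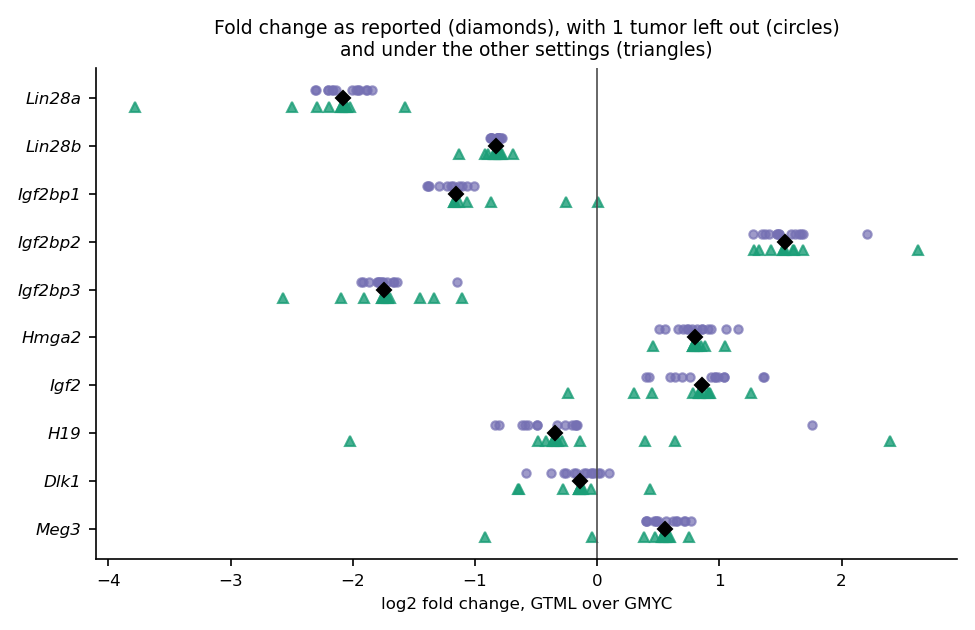
Log2 fold change, GTML over GMYC, of each of the 10 genes as reported (diamonds), with 1 tumor left out (circles) and under the other settings (triangles). Lin28a, Lin28b and Igf2bp3 stay left of 0 and Igf2bp2 and Hmga2 right of 0 throughout, while H19, Dlk1, Meg3, Igf2 and Igf2bp1 cross 0 in at least 1 setting.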

How the data were processed

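The data are RNA counts of 6 GMYC and 8 GTML biopsies. Ion Proton reads were mapped by the authors with STAR, with Bowtie as a further step, on mm9, and counted per gene with featureCounts and GENCODE annotation (the submitters' processing notes give STAR 2.4.0, Bowtie2 2.2 and Subread 1.5.2; the paper gives other versions of both aligners), and the authors deposited these whole-number counts without normalization. The handling of strand is not stated in the sources used here, so reads of overlapping genes cannot be told apart. A further 18 columns, whose names match no label, were not used. The labels do not say that each biopsy came from a separate animal, and p-values then measure only the spread between these samples.

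Here genes with CPM above 1 in at least 3 tumors entered edgeR 4.0.16 under R 4.3.3 (TMM, robust quasi-likelihood test, all 14 tumors, Benjamini-Hochberg), with calls at the study's thresholds and at an adjusted p under 0.05. The code was tested on simulated counts. Log2 CPM used a prior count of 2. Symbols and exon lengths came from the GRCm38 annotation by Ensembl identifier (87.4% of genes had both). Permutation tests were two-sided. Replicate numbers did not pair tumors. The alternatives were DESeq2 1.42.0, limma-voom (limma 3.58.1), other filters and scalings, the small nucleolar RNA split as a term, a Y-linked covariate, thinning, a replicate block, other prior counts and each tumor left out. Members and lists were chosen with earlier results of these data known. Named genes are the members, the drivers, each list's genes past the stricter call or else its 2 with the smallest p, and each member's 3 nearest genes; other genes, among them Tut4, Tarbp2, Ddx5, Insr, Hmga1, single markers, Y-linked and overlapping genes, were named after their values were seen. Genes of the lists with no matching row (7 in all, such as Rian and Kcnq1ot1) were not analysed here. Figures used matplotlib in Python.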

Additional observations from a re-analysis of the deposited data

Results flagged for a closer look

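The levels of each member were checked for a tumor that stood apart from the others of its model, by the ratio of its gap to the nearest tumor over the range of the model (Dixon's test, 95% critical values). Over 20 sets of values, 3 were marked, all of them the highest GMYC tumor. For normally spread values chance marks about 1 in 20. The check was run on linear CPM, where a high tumor stands out more than on a log scale. The 3 marks therefore cannot be set against that rate. GMYC tumor 4 had 5.79 CPM of Igf2bp1, with the other 5 GMYC tumors between 0.14 and 1.45 CPM, and 2.69 CPM of Igf2bp2, with the other 5 between 0.322 and 0.764 CPM. These are 43 and 20 counts. GMYC tumor 5 had 141 CPM of H19, from 875 counts, with the other 5 GMYC tumors between 0.702 and 13.5 CPM. GMYC tumor 5 also had the highest Igf2bp3, Igf2, Dlk1 and Meg3 of its model, which is given as a description.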

How the results depend on the processing

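The count of genes called (662) was 1891 with DESeq2, 287 with the small nucleolar RNA split as a term, 2 and 141 within its higher and lower side, 58 with a covariate of Y-linked genes, 4423 at an adjusted p under 0.05 with no fold limit, and 110 to 1582 with 1 tumor left out: 1582 without GTML tumor 2, 110 to 427 without GMYC tumor 1, 3, 4, 5 or 6 or GTML tumor 3, 5, 6, 7 or 8, and 518 to 856 without the others. The count of members called (0) was 2 with DESeq2, 1 on the lower side of the split, 3 with the looser rule, and 0 to 1 with 1 tumor left out. The count at an adjusted p under 0.05 (3) was 1 with limma-voom, 0 on the higher side, and 2 to 4 with 1 tumor left out. Signs turned for Igf2bp1 with limma-voom (0.01), H19 with limma-voom (0.64), on the higher side (2.39) and without GMYC tumor 5 (-0.83 to 1.76 over the tumors left out), Dlk1 on the higher side (0.43) and with a tumor left out (-0.58 to 0.10), Igf2 on the higher side (-0.24), and Meg3 with the split term (-0.04) and on the higher side (-0.92). The causes were not tested. CPM above 5 in 3 tumors left Igf2bp1, Igf2bp2 and Hmga2 untested. Lin28b kept its sign throughout and was not past 0.05 on the higher side.

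The replicate numbers did not pair the tumors (1 of 6 same-number pairs had a correlation over 0.1, range -0.212 to 0.24). With them as a replicate block 8 genes were called, 1 member, Lin28b, was under an adjusted p of 0.05, and H19 turned to 0.39. Igf2bp1, Igf2bp2 and Hmga2 rest on at most 43 counts in a tumor, which limits what can be seen of them.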
